A study of Mus musculus with 4 samples.

Results

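Conventional dendritic cells of mouse mammary tumors were described here in their 2 subsets, cDC1 and cDC2. They were taken from single-cell RNA-seq libraries of 4 mice, 1 library per mouse, by the unique molecular identifiers (UMIs) of marker genes. A barcode was kept with at least 2000 UMIs, at most 20% mitochondrial UMIs, no UMI of the B cell gene Cd79a or the T cell gene Cd3e and, per 10000 UMIs, at least 50 of the MHC class II genes Cd74, H2-Aa, H2-Ab1 and H2-Eb1 together, fewer than 10 of C1qa, C1qb and C1qc and fewer than 5 of Ccr7 and Fscn1. A cDC1 then needed at least 2 UMIs of Xcr1 and Clec9a together, and a cDC2 at least 2 of Cd209a and Flt3 together and none of Xcr1 and Clec9a. Of 20892 barcodes within the UMI and mitochondrial limits, 277 were members, 87 of them cDC1 and 190 cDC2.

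The tumors came from littermates of 17 to 18 weeks on 2 genotypes. Cre- mice were MMTV-Cre-, Frmd8 fl/fl, PyMT (replicates 1 and 3), and Cre+ mice were MMTV-Cre+, Frmd8 fl/fl, PyMT (replicates 2 and 4). Both groups therefore carried the floxed Frmd8 alleles and the PyMT oncogene, which drives the tumors, and differed by the Cre transgene. The MMTV promoter drives Cre in the mammary epithelium, so the dendritic cells are not the cells the deletion was aimed at, and the study compared the genotypes to find what Frmd8 loss does in the tumor. Cells had been sorted by flow cytometry before capture, with the gate not given in the sources used here. Replicate 4 was deposited with every barcode and carries another Cell Ranger version than the others, so version and deposited form cannot be told apart from that mouse, while Cre+ replicate 2 shares version and form with the Cre- libraries. The libraries held 122658098, 112729231, 126843597 and 157662955 UMIs in replicates 1 to 4. Any pair of libraries shared 5 to 14 barcodes within the limits and 0 among the members.

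Conventional dendritic cells take up antigen in tissues and present it to T cells. The cDC1 subset depends on the transcription factors IRF8 and BATF3, takes up dying cells through CLEC9A, presents their antigens on MHC class I to CD8 T cells and answers the T cell chemokine XCL1 through XCR1. The cDC2 subset depends on IRF4 and KLF4, bears SIRPA, CD11b and many C-type lectins and presents mainly on MHC class II to CD4 T cells. Both arise from precursors that need the receptor FLT3. Dendritic cells that have matured turn on CCR7 and FSCN1 and were held apart here, as were macrophages, which hold the complement genes C1qa to C1qc.

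Frmd8, the floxed gene, had few UMIs in both subsets. It had 1 and 19 UMIs in Cre- and 12 and 10 in Cre+ cDC1 (4.22, 28.6, 20.8 and 17.8 CPM, UMIs of the gene per 1000000 UMIs of the summed cells) and 29, 42, 27 and 10 UMIs in cDC2 (32.3, 29.7, 32.1 and 34.4 CPM). Its genotype log2 fold change was -0.09 ± 0.62 in cDC1 and 0.15 ± 0.33 in cDC2 (edgeR adjusted p = 1.00 in both). Over all barcodes within the limits it was at 25.1 and 24.6 CPM in Cre- and 11.3 and 12.9 CPM in Cre+ libraries. Counts from the 3' end do not read the floxed exons themselves, so a level of Frmd8 does not show how many alleles were deleted.

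The members were chosen by the UMI counts of Cd74, H2-Aa, H2-Ab1, H2-Eb1, C1qa to C1qc, Ccr7, Fscn1, Xcr1, Clec9a, Cd209a, Flt3, Cd79a and Cd3e, and these values are given as a description. Xcr1, the XCL1 receptor, stood at 418 and 309 CPM in cDC1 of Cre- replicates 1 and 3 and at 422 and 476 CPM in Cre+ replicates 2 and 4. Clec9a stood at 211, 161, 207 and 212 CPM in the same order, and 79 of the 87 cDC1 held UMIs of both genes. Cd209a stood at 565 and 829 CPM in Cre- and 770 and 675 CPM in Cre+ cDC2, and at 12.7, 3.02, 5.21 and 0 CPM in cDC1. Flt3 was found in both subsets, at 232, 158, 191 and 96.3 CPM in cDC1 and 96.8, 97.6, 58.3 and 75.8 CPM in cDC2, and 75 cDC1 would have met the cDC2 minimum. The minimum was met by exactly 2 UMIs in 6 cDC1 and missed with 1 UMI by 19 barcodes, and for cDC2 these numbers were 23 and 40. Barcodes just outside the cDC1 minimum held 1196 CPM of Irf8 when summed and the 6 just inside 1992 CPM, with 70 and 60 UMIs of Siglech, a marker of plasmacytoid dendritic cells. For Irf4, barcodes just outside the cDC2 minimum held 69.8 CPM and those just inside 67.3 CPM.

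The subsets differed in depth. The median cDC1 held 20988, 21542, 25199 and 21733 UMIs in Cre- replicates 1 and 3 and Cre+ replicates 2 and 4, above the median cDC2 of the same library in each of the 4 (14394, 16218, 17410 and 14373 UMIs). All tests of genes ran on UMI sums per library and subset, which held 236734 to 663312 UMIs for cDC1 and 290390 to 1413330 for cDC2. The smallest sum was the 11 cDC1 of Cre- replicate 1. The deepest member, a cDC2 of that library with 148149 UMIs, gave 16.5% of its sum and held 1075 UMIs of the epithelial genes Epcam, Krt8 and Krt18.

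Markers that the choice did not use followed both labels. Of 20 cDC1 markers, 18 passed the filter on low counts, 17 were higher in cDC1, 0 were lower and 1 (Itgb7, 190 ± 23.2 against 166 ± 45.9 CPM) was not called (median log2 fold change 3.91). Of 20 cDC2 markers, 14 passed, 12 were higher in cDC2, 1 was higher in cDC1 and 1 was not called (median -4.80). Over all 5958 genes tested, the median was -0.00 and 857 genes (14.4%) were called at an adjusted p under 0.05, 386 higher in cDC1 (6.48%) and 471 higher in cDC2 (7.91%), by edgeR's quasi-likelihood test with Benjamini-Hochberg adjustment. The 4 libraries of one subset did not overlap those of the other in 19.5% of genes (7.28% with cDC1 higher and 12.2% with cDC2 higher), and among the markers in 17 of 18 and 12 of 14. Without Cre- replicate 3, which held the most members, 424 genes were called, 416 of them among the 857. Genes that go with the choosing genes from cell to cell follow the choice, so these counts describe how far apart the 2 gates lie.

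Of the lineage factors Irf8, Batf3, Irf4 and Klf4, all but Klf4 followed the labels. Irf8, which cDC1 need, stood at 1867 and 1749 CPM in cDC1 of Cre- replicates 1 and 3 and at 1741 and 1874 CPM in Cre+ replicates 2 and 4, against 26.7, 98.3, 63.1 and 334 CPM in cDC2. The cDC1 libraries were close to each other while cDC2 spread widely, and the groups did not overlap (log2 fold change 4.12 ± 0.58 SE, adjusted p = 6.59e-04). Batf3, its partner in cDC1, was higher in cDC1 by 1.57 ± 0.36 (176 ± 25.0 against 61.8 ± 43.7 CPM, SD, n = 4, adjusted p = 0.0119), a call lost without replicate 1 (adjusted p = 0.0576) and without replicate 3 (0.124). Irf4, the cDC2 factor, stood at 71.2, 34.7, 57.1 and 58.5 CPM in cDC2 and at 0, 1.51, 6.94 and 0 CPM in cDC1, lower in cDC1 by 4.33 ± 0.54 (adjusted p = 2.84e-04). Klf4, also counted among cDC2 factors, was not called (288 ± 193 CPM in cDC1 and 310 ± 89.5 CPM in cDC2), and its highest library was a cDC1 one (574 CPM in Cre- replicate 1). Of 12 tested genes of both subsets, 3 were higher in cDC1, 2 in cDC2 and 7 were not called, beside 6.48% and 7.91% of all genes. Among the 3 were Id2 and Zbtb46, factors of the conventional dendritic cell lineage (1.71 ± 0.29 and 1.48 ± 0.29). Nfil3 and Relb were higher in cDC2. Relb lost its call under 11 of the alternatives, among them DESeq2 (adjusted p = 0.115), the fit with the mouse as a replicate block (0.0706) and the exclusion of members holding UMIs of other cells (0.663). The 7 not called were Dpp4, Itgax, Spi1, Runx3, Bcl11a, Kit and Ciita.

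**Figure D1:**
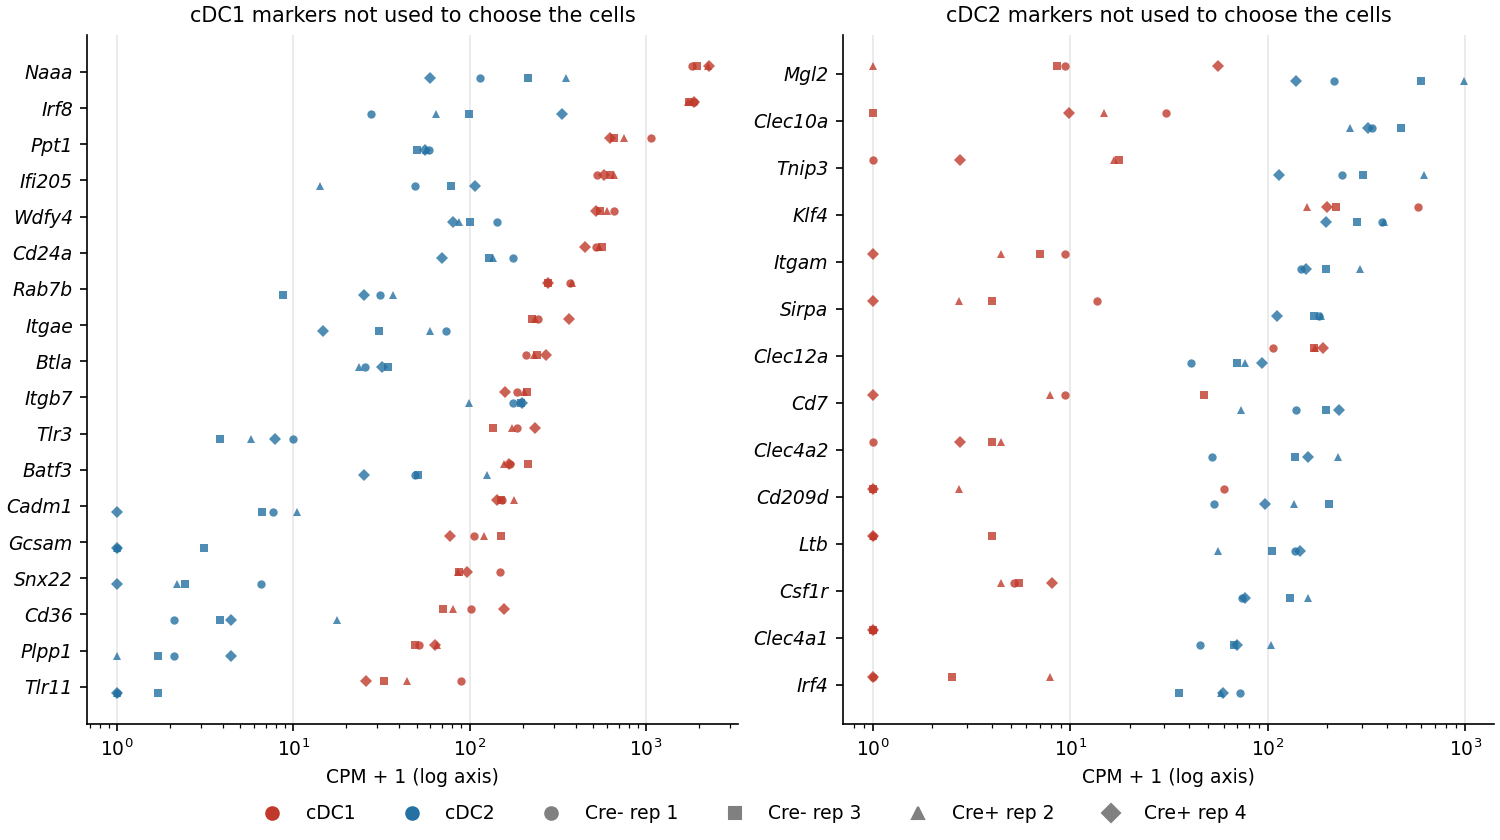
CPM + 1 on a log axis of the cDC1 markers (left) and cDC2 markers (right) that the choice of cells did not use and that passed the filter on low counts, in cDC1 (red) and cDC2 (blue), with 1 symbol per library. Apart from Itgb7, the red points of the left panel lie above all blue points of their gene, and on the right Klf4 and Cd209d (call lost with DESeq2, adjusted p = 0.0807, and without replicate 2, 3 or 4) overlap and Clec12a runs the other way.

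Among the cDC1 markers outside the choice, Naaa, Wdfy4, Itgae, Cadm1, Cd24a and Ppt1 were each higher in cDC1. Naaa, an acid amidase of lysosomes, was at 1833 and 1940 CPM in Cre- and 2263 and 2268 CPM in Cre+ cDC1, against 113, 214, 354 and 58.5 CPM in cDC2 (log2 fold change 3.55 ± 0.42, adjusted p = 1.77e-04). Wdfy4, needed for presentation of cell-bound antigen on MHC class I, was at 655, 552, 602 and 522 CPM in cDC1 and 142, 99.8, 85.7 and 79.2 CPM in cDC2 (2.63 ± 0.17, adjusted p = 6.75e-06). For both genes every cDC1 library was above every cDC2 library. Itgae, the CD103 integrin chain of tissue cDC1, averaged 267 ± 65.9 against 43.5 ± 26.6 CPM, Cadm1, an adhesion molecule, 155 ± 15.1 against 5.46 ± 3.99 CPM, and Cd24a 519 ± 49.4 against 126 ± 43.6 CPM. Over the 15 integrin and adhesion genes tested, 4 were higher in cDC1 (these 3 and Itgal, 70.5 ± 29.1 against 16.4 ± 2.90 CPM), 2 were higher in cDC2 (Itgam, the CD11b chain, 198 ± 67.0 against 4.49 ± 3.62 CPM, and Cdh1, which encodes E-cadherin, 105 ± 32.3 against 14.4 ± 12.8 CPM) and 9 were not called (median -0.09), beside 6.48% and 7.91% of all genes tested. Ppt1, a lysosomal thioesterase, was higher by 3.93 ± 0.21 (778 ± 204 against 54.6 ± 3.57 CPM, adjusted p = 2.72e-06). Cst3, the protease inhibitor cystatin C, was the called gene with the highest level among those over 2 on the log2 scale and was singled out after its values were seen, at 24737 ± 6543 CPM in cDC1 and 3774 ± 749 CPM in cDC2 (2.82 ± 0.25).

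By the fixed rule on fold size, 12 genes were named on the cDC1 side. They were Gpr141b (log2 fold change 7.59 ± 0.51), Gcsam (6.98 ± 0.48), Plpp1 (5.77 ± 0.44), Pianp (5.55 ± 0.59), Snx22 (5.53 ± 0.42), Cxcr3 (5.49 ± 0.41), Dnase1l3 (5.45 ± 0.67), Tlr3 (5.09 ± 0.33), Cadm1, Fam149a (4.66 ± 0.40), Agpat3 (4.15 ± 0.42) and Irf8. Gpr141b, a receptor of the G protein-coupled family, was at 86.4 ± 24.2 CPM in cDC1 (17, 63, 67 and 35 UMIs), and in cDC2 it had 1 UMI in 1 library. Cxcr3, the receptor for CXCL9 and CXCL10, was even across cDC1 libraries (63.4, 67.8, 69.4 and 71.3 CPM) and at or under 3.44 CPM in cDC2. Dnase1l3, a secreted nuclease, was lowest in cDC1 of replicate 3 (25.6 CPM) and between 76.0 and 86.8 CPM in the others.

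On the cDC2 side the 12 were Clec4a1, S100a4 (-7.21 ± 0.54), Clec4n (-6.82 ± 0.60), Ccr1 (-6.79 ± 0.47), Clec4a3 (-6.51 ± 0.70), Ltb (-6.42 ± 0.63), Ccl9 (-6.37 ± 0.61), Il1r2 (-6.34 ± 0.50), Tmem176a (-6.14 ± 0.54), Ifitm1 (-5.92 ± 0.73), Clec4a2 (-5.76 ± 0.53) and Osm (-5.75 ± 0.84). Clec4a1, a lectin receptor, had 240 UMIs in cDC2 and 0 in cDC1, so it was at least 47.3-fold higher in cDC2 against a floor of 3 UMIs over the 4 cDC1 sums (44.5 and 66.5 CPM in Cre- and 102 and 68.9 CPM in Cre+ cDC2). S100a4, a calcium-binding protein of motile cells, was at 2297, 3633, 2425 and 3957 CPM in cDC2 and at 4.22, 13.6, 53.8 and 5.35 CPM in cDC1. Ifitm1, an interferon-inducible membrane protein, was at 1650 and 1516 CPM in Cre- and 315 and 1711 CPM in Cre+ cDC2, with replicate 2 alone low, and no cDC1 library above 66.3 CPM. Il1r2, the decoy receptor of interleukin-1, was at 416, 328, 113 and 265 CPM in cDC2 and at most 6.03 CPM in cDC1.

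The promoters shown next are of Gpr141b and Clec4a1, the named genes with the largest fold to the cDC1 and to the cDC2 side, and of Cd209a, the lectin gene that chose most cDC2. IRF8 and IRF4 both bind ETS-IRF composite elements together with PU.1, searched on both strands as GGAA and GAAA with any 2 bases between them, and matches stand in capitals. Each run holds 250 bases before and 50 after the start of the gene, from RefSeq on GRCm38.p6, on the gene's own strand (chr13:19732902-19733201, minus strand; chr6:122921598-122921897, plus strand; chr8:3748935-3749234, minus strand).
Gpr141b: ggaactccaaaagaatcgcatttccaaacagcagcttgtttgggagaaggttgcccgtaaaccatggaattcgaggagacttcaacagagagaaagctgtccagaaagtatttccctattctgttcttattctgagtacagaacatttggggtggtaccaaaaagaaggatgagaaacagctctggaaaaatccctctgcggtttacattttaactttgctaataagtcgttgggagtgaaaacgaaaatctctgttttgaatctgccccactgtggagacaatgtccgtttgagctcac
Clec4a1: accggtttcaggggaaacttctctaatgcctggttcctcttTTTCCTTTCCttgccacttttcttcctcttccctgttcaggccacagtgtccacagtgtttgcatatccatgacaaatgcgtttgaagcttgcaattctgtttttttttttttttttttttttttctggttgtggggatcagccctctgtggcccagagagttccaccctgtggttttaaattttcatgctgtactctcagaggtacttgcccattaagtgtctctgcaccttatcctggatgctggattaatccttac
Cd209a: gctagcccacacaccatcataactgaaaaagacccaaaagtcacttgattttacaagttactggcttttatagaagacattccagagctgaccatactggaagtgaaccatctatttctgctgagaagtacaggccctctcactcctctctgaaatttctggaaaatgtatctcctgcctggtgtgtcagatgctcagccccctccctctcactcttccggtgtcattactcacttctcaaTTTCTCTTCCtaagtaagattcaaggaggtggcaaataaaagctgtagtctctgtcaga
Clec4a1 and Cd209a held 1 match each, on the strand opposite to the gene, and Gpr141b held 0. The element stood in 3.16% of all 27025 promoters of the table, in 3.38% of the promoters of tested genes, in 10 of 312 promoters (3.21%) of the genes called higher in cDC1 and in 21 of 374 (5.61%) of those called higher in cDC2. Of 3 other elements, the PU.1 site AGAGGAAGT stood in 1.72% of tested, 5.13% of cDC1-higher and 2.67% of cDC2-higher promoters, the interferon core (GAAA, any 2 bases, GAAA) in 4.27%, 5.45% and 5.88%, and the AP-1 site TGANTCA in 6.06%, 6.41% and 10.4%. The elements can overlap one another, each promoter was searched over 300 bases on both strands, and the matches are of letters only.

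**Figure D2:**
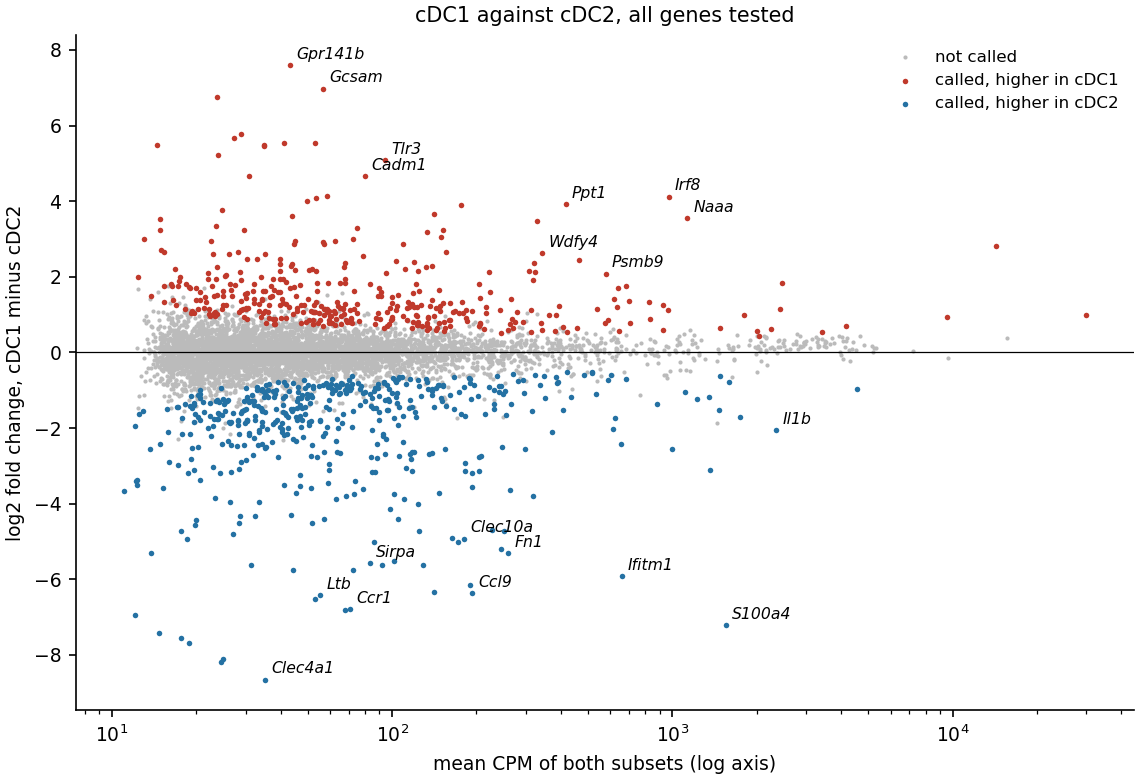
Log2 fold change of cDC1 over cDC2 against the mean CPM of both subsets (log axis) for all 5958 genes tested, with genes called at an adjusted p under 0.05 in red (386 higher in cDC1) and blue (471 higher in cDC2). Irf8, Naaa and Ppt1 stand out in cDC1, and S100a4, Ifitm1 and Il1b in cDC2, at high levels.

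Among the genes for presentation on MHC class I, 18 of 19 listed were tested, 8 were higher in cDC1 and 0 lower (median 0.46), beside 6.48% and 7.91% of all genes tested higher in cDC1 and in cDC2. Among these were parts of the immunoproteasome, its activator and the peptide transporter. Psmb9 was at 997, 883, 745 and 1063 CPM in cDC1 (Cre- replicates 1 and 3, Cre+ replicates 2 and 4) and 265, 238, 198 and 241 CPM in cDC2 (log2 fold change 2.08 ± 0.19, adjusted p = 3.17e-05). Tap1 was at 258, 259, 257 and 228 CPM against 94.5, 112, 117 and 96.4 CPM (1.34 ± 0.16), and Tap2, Psme1 and Psmb8 were higher by 1.81 ± 0.20, 1.37 ± 0.20 and 1.13 ± 0.21. In each of these 5 genes no cDC2 library reached the lowest cDC1 library. The chains that display the peptide were not called: H2-K1 was at 936 ± 164 and 1198 ± 231 CPM, H2-D1 at 1507 ± 77.1 and 1821 ± 435 CPM and B2m at 1484 ± 102 and 1846 ± 375 CPM in cDC1 and cDC2. Among 12 genes of cross-presentation, 9 were tested with the same background, Wdfy4 and Rab43 were higher in cDC1 and Cybb, the oxidase of the phagosome, and Rac2 were higher in cDC2 (Cybb 353 ± 81.0 against 33.0 ± 29.7 CPM), with the call of Rac2 lost without replicate 3 (adjusted p = 0.053).

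Of 15 listed genes of the MHC class II machinery outside the choice, 14 were matched in the files and 13 tested, 2 were higher in cDC1, 4 higher in cDC2 and 7 were not called (median -0.75), again beside 6.48% and 7.91% of all genes. The 4 were Ctss, Ifi30, Lgmn and H2-DMb2. Ctss, the cathepsin that trims the invariant chain, was at 878, 1479, 1584 and 1243 CPM in cDC2 against 393, 504, 498 and 489 CPM in cDC1, and Ifi30, a thiol reductase, at 1746 ± 304 against 705 ± 103 CPM. Lgmn, an endopeptidase, and H2-DMb2, a chain of the peptide exchanger H2-DM, were higher in cDC2 too (log2 fold changes -1.97 ± 0.27 and -1.68 ± 0.29). The 2 on the cDC1 side were March1, a ubiquitin ligase that takes MHC class II off the surface (1.13 ± 0.21), and H2-Ob, a chain of the inhibitor of H2-DM (0.97 ± 0.26, adjusted p = 0.0292). H2-Ob lost its call without replicate 1, 2 or 3 (adjusted p = 0.0658, 0.0751 and 0.0723). Ciita, the master regulator of the class II genes, was not called (207, 182, 194 and 185 CPM in cDC1 and 202 ± 29.2 CPM in cDC2, log2 fold change 0.02 ± 0.16).

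Innate receptors were read as 2 lists, beside 6.48% of all genes higher in cDC1 and 7.91% higher in cDC2. Of 17 Toll-like receptor genes and adaptors, 6 were tested: Tlr3, the sensor of double-stranded RNA, Tlr11, the sensor of profilin, and Unc93b1, which carries such receptors to endosomes, were higher in cDC1, and Tlr2 and Cd14, sensors of bacterial lipids, in cDC2. Tlr3 was at 186, 136, 174 and 234 CPM in cDC1 and at or under 8.90 CPM in cDC2, and Tlr11 was at 88.7, 31.7, 43.4 and 25.0 CPM in cDC1 and had 1 UMI in cDC2. Tlr2 ran the other way, at 94.0 ± 25.2 CPM in cDC2 and 8.39 ± 6.39 CPM in cDC1. Unc93b1 lost its call without replicate 1, 3 or 4 (adjusted p = 0.169, 0.142 and 0.141) and without members holding UMIs of other cells (0.144). Cd14 was higher in cDC2 (-2.76 ± 0.60), with overlap of libraries, and its call was lost without replicate 3 (adjusted p = 0.0875). All 10 C-type lectin genes tested (of 22 listed, 20 matched) were called, 9 of them higher in cDC2 and Clec12a, an inhibitory receptor for dead cells, higher in cDC1 (159 ± 36.7 against 69.5 ± 22.1 CPM). Clec4a1, Clec4n, Clec4a3 and Clec4a2 had 0, 2, 2 and 5 UMIs in cDC1 and passed the low-count filter through cDC2. The count of calls over such genes is therefore a description. Cd209d lost its call with DESeq2 (adjusted p = 0.0807) and without replicate 2, 3 or 4. Clec10a, a galactose-binding lectin, was at 337, 473, 259 and 320 CPM in cDC2 and at most 29.6 CPM in cDC1, while Mgl2, its neighbor, ranged from 138 CPM (Cre+ replicate 4) to 987 CPM (Cre+ replicate 2). Counts of close paralogs such as the Clec4a and Cd209 genes rest on how the authors' software assigned shared reads.

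Of 18 cytokine and chemokine genes tested, 8 were higher in cDC2, 2 in cDC1 and 8 were not called, beside 7.91% and 6.48% of all genes. Of 20 cytokine genes 7 were tested, and 4 were higher in cDC2 and 0 in cDC1. Il1b was at 3169, 3863, 3551 and 4484 CPM in cDC2 and at 1905, 654, 436 and 692 CPM in cDC1 (log2 fold change -2.05 ± 0.39, adjusted p = 0.00417). The part of free RNA in the Il1b UMIs of cDC1 was not tested. Il1rn, the natural inhibitor of the interleukin-1 receptor, had 171 UMIs in cDC2 and 0 in cDC1, at least 33.7-fold higher in cDC2 by the same floor, and Ltb and Osm are named above. Il12b, the p40 chain of the interleukin that drives type 1 T cell responses, did not pass the filter, with 9, 11, 13 and 8 UMIs in cDC1 (38.0, 16.6, 22.6 and 14.3 CPM) and 1 UMI in all cDC2. Of 17 chemokine genes matched, 11 were tested, and Ccl9, Cxcl2, Cxcl10 and Ccl6 were higher in cDC2 and Cxcl16 and Cxcl9 in cDC1. Cxcl2, a neutrophil attractant, was at 112 and 347 CPM in Cre- and 1343 and 99.9 CPM in Cre+ cDC2 and at most 15.6 CPM in cDC1. Cxcl9 was at 12.7, 93.5, 55.5 and 26.7 CPM in cDC1 and 26.7, 9.91, 0 and 0 CPM in cDC2, with overlap, and its call (2.65 ± 0.66, adjusted p = 0.0183) was lost without replicate 2 (0.0638) and without replicate 3 (0.282). The call of Cxcl16 was lost without replicate 2 (adjusted p = 0.0507) and that of Cxcl10 without members holding UMIs of other cells (0.0548). Ccl4, an inflammatory chemokine, was similar in range in both subsets (1207 ± 798 and 1290 ± 751 CPM, not called).

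Receptors were read as 3 lists, beside 6.48% of all genes higher in cDC1 and 7.91% higher in cDC2. Of 9 chemoattractant receptors tested, 1 was higher in cDC1 (Cxcr3) and 3 in cDC2. Of these, Ccr1 is named above, and Ltb4r1 lost its call without replicate 2 (adjusted p = 0.0527) and with DESeq2 (0.125). Ccr2, the monocyte receptor, at 542 ± 274 and 246 ± 84.9 CPM was not called (adjusted p = 0.0606). Of 17 growth factor and cytokine receptors tested, 6 were higher in cDC2 (Csf1r, Csf2rb, Csf2rb2, Il4ra, Il10ra and Il1r2) and 1 in cDC1. Csf2rb2 lost its call without replicate 3 (adjusted p = 0.149) and without replicate 4 (0.0848), and Il4ra without replicate 2, 3 or 4 (0.0675, 0.0908 and 0.0637), and Il10ra without replicate 3 (0.107) or 4 (0.0573). Csf1r, the receptor of macrophage colony-stimulating factor, was at 73.4, 129, 160 and 75.8 CPM in cDC2 and 4.22, 4.52, 3.47 and 7.13 CPM in cDC1. The shared chain Csf2rb of the GM-CSF receptor was higher in cDC2 by a smaller step (182 ± 36.8 against 86.2 ± 9.97 CPM). Notch2 was the 1 member higher in cDC1 (85.5 ± 17.9 against 52.7 ± 5.59 CPM), a call lost without replicate 2 (adjusted p = 0.0709), without replicate 3 (0.134) and without members holding UMIs of other cells (0.482). Among 15 co-stimulatory and checkpoint genes tested, Btla (238 ± 26.5 against 27.8 ± 5.10 CPM), Havcr2, which encodes TIM-3, and Slamf7 were higher in cDC1, and Sirpa, Tnfsf9, Cd200r1, Cd80 and Pvr in cDC2. Sirpa, the receptor for CD47, was at 181, 171, 186 and 110 CPM in cDC2 and 12.7, 3.02, 1.74 and 0 CPM in cDC1. Pvr lost its call under 8 alternatives, among them each exclusion of 1 library, Cd80 lost its call without replicate 1, 3 or 4 (adjusted p = 0.104, 0.26 and 0.0824), and Havcr2 with upper limits on cells (200 to 5000 genes and under 30000 UMIs kept, 0.0649) and without members holding UMIs of other cells (0.122). Cd274, Cd86, Cd40 and Icosl were not called.

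**Figure D3:**
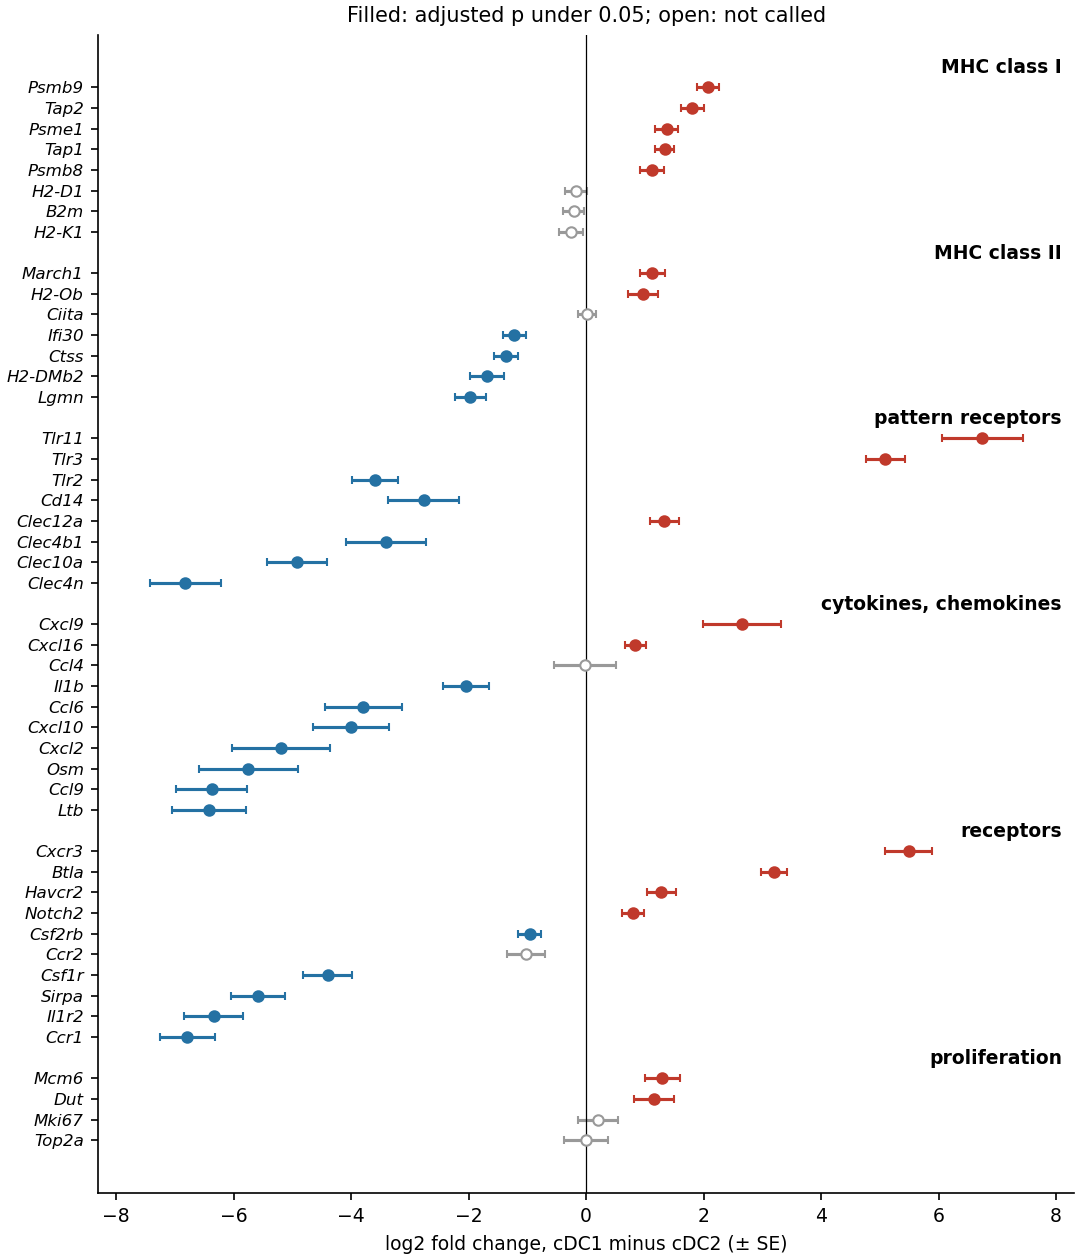
Log2 fold change of cDC1 over cDC2, with its SE, for genes of 6 functional groups (filled points are called at an adjusted p under 0.05, red when higher in cDC1 and blue when higher in cDC2, open points are not). Psmb9, Tap1, Tap2, Tlr3, Tlr11, Clec12a and Cxcl9 lie to the right, Clec10a, Clec4n, Il1b, Ltb, Ccl9 and Cxcl2 to the left, and Ccl4 near 0.

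Of 26 interferon-stimulated genes, 23 were matched and 22 tested, and 3 were higher in cDC1 (Ifi205, Ifi44, Irf7) and 2 in cDC2 (Ddx58, Oasl2), with a median of 0.33, beside 6.48% and 7.91% of all genes tested. Ifi205 made the largest step, at 528, 629, 656 and 579 CPM in cDC1 and 47.8, 77.1, 13.1 and 107 CPM in cDC2. Irf7 lost its call without replicate 1 (adjusted p = 0.0561), Ifi44 with cDC2 taken by Cd209a alone (0.0624) and without members holding UMIs of Siglech and Ccr9 (0.0566), and Oasl2 without replicate 3 (0.0578) and without members holding UMIs of other cells (0.0515). Isg15, Ifit1, Ifit3 and Stat2 were not called. Of 17 immediate early genes, which rise when tissue is dissociated, Fos and Dnajb1 were higher in cDC1 and Ier2 in cDC2, each by less than 1 on the log2 scale and each losing its call without replicate 1 or without replicate 3, and 14 were not called.

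Cell cycle genes were read in both subsets. With each member thinned to 2000 UMIs, at least 3 UMIs of S phase and G2/M genes were held by 45.5, 27.6, 22.7 and 40.0% of cDC1 (Cre- replicates 1 and 3, Cre+ replicates 2 and 4) and by 28.9, 13.3, 14.3 and 35.0% of cDC2. The cDC1 share was the higher in 4 of 4 mice, by 11.1 percentage points on average (exact two-sided sign-flip permutation test over mice, p = 0.125, the smallest p that 4 mice allow). Without thinning the shares were at least 93.1% in cDC1 and at least 86.7% in cDC2, a difference of 6.35 points, and with the upper limits on cells it was 6.49 points. Without members holding UMIs of other cells it was 18.0 points. With a stricter UMI minimum for replicate 4, that mouse turned to -6.25 points (37.5% of 24 cDC1 and 43.8% of 16 cDC2), so 3 of 4 mice had the higher share in cDC1 (8.27 points on average, exact p = 0.25). Gene by gene, 2 of 15 S phase genes were higher in cDC1 and 0 lower (median 0.81, with 6.48% of all genes higher in cDC1), and 0 of 16 G2/M genes were called (median 0.21). The 2 were Dut, which clears dUTP (1.15 ± 0.33, adjusted p = 0.0395), and Mcm6, part of the replicative helicase (1.29 ± 0.30, adjusted p = 0.0121). Dut lost its call without replicate 2 (adjusted p = 0.19) or 3 (0.17), with the upper limits on cells (0.289) and without members holding UMIs of Siglech and Ccr9 (0.083), and Mcm6 without replicate 1 (0.0593) or 3 (0.0626). Mki67 was at 88.6 ± 53.5 and 88.1 ± 33.6 CPM. Free RNA can add to such UMIs, and its part in the shares was not tested.

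Genes of other cells were read beside these results. Over 10 plasmacytoid dendritic cell markers, the summed level was 1128, 495, 769 and 287 CPM in cDC1 and 469, 650, 481 and 1491 CPM in cDC2 (Cre- replicates 1 and 3, Cre+ replicates 2 and 4), led in all 8 sums by Bst2. Between the subsets 0 of 9 tested markers were called, beside 14.4% of all genes tested. At least 2 UMIs of Siglech and Ccr9 were held by 7 cDC1 and 18 cDC2, and those 18 held 196 of the 313 Irf8 UMIs of cDC2. The 28 cDC2 taken in through Flt3 (7, 15, 1 and 5 in Cre- replicates 1 and 3 and Cre+ replicates 2 and 4) held 131 of the Irf8 and 83 of the Siglech UMIs (Irf8 330 CPM when summed), and the 162 taken in by Cd209a held 182 and 92 (Irf8 59.8 CPM). Without the Siglech and Ccr9 members, 830 genes were called between the subsets, 789 of them among the 857.

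Markers of mature dendritic cells outside the choice summed to 1314, 1433, 1011 and 1229 CPM in cDC2 and 908, 697, 771 and 683 CPM in cDC1 (Cre- replicates 1 and 3, Cre+ replicates 2 and 4), led in all 8 sums by Cd83, and every cDC2 sum was above every cDC1 sum. Of 18 listed, 9 were tested, 6 were higher in cDC2 (Samsn1, Birc2, Traf1, Tmem123, Cd80 and Relb), 0 were higher in cDC1 and 3 were not called (median -1.42). Over all genes tested, 7.91% were higher in cDC2 and 6.48% in cDC1. Samsn1, an adaptor of immune cells, was at 110 ± 13.6 CPM in cDC2 and 16.9 ± 4.52 CPM in cDC1, and Traf1, an adaptor of tumor necrosis factor receptors, at 232 ± 48.4 and 80.3 ± 35.1 CPM. Tmem123 lost its call without replicate 3 (adjusted p = 0.0525). The part of maturing cells below the limit on Ccr7 and Fscn1 in these differences was not tested.

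Monocyte and macrophage markers were read beside a share of 7.91% of all genes higher in cDC2. Of 10 monocyte markers, 8 were tested, and Fn1, Ms4a4c, Cd14 and Fcgr1 were higher in cDC2, with 0 higher in cDC1 (median -1.94). The 10 markers summed to 1979, 3024, 3803 and 4143 CPM in cDC2 and 1132, 915, 1054 and 1400 CPM in cDC1, led by Plac8 in all sums but cDC2 of Cre+ replicate 2, where Fn1 led. Fn1, fibronectin, was at 190 and 492 CPM in Cre- and 1318 and 34.4 CPM in Cre+ cDC2, and at most 22.6 CPM in cDC1. Of 10 macrophage markers outside the choice, 5 were tested, and Mrc1, Fcgr1 and Cd68 were higher in cDC2, the calls of Fcgr1 and Cd68 being lost without replicate 3 (adjusted p = 0.0638 and 0.0761). Mrc1, the mannose receptor, was at 62.3, 222, 418 and 17.2 CPM in cDC2, so that Mrc1, Fn1, Mgl2 and Cxcl2 were each highest in Cre+ replicate 2 and each lowest in Cre+ replicate 4. The summed level of macrophage markers was 379, 776, 896 and 475 CPM in cDC2 and 156 to 262 CPM in cDC1, led by Cd68, Apoe or Mrc1, with 3 to 6 of the 10 at 0 in the cDC1 sums and 0 to 4 in the cDC2 sums. The part of admixed monocytes or macrophages in these differences was not tested.

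Epithelial transcripts were also found. The 8 epithelial markers summed to 131, 665, 4863 and 109 CPM in cDC1 and 9191, 577, 1651 and 172 CPM in cDC2, led mostly by the milk protein gene Csn3 or by Lcn2. Between the subsets 0 of 5 tested were called, beside 14.4% of all genes tested (median log2 fold change -1.14, 0 of 5 positive). The NK cell markers were led by Gzma in replicate 3, at 522 CPM in cDC1 and 258 CPM in cDC2, and at or under 13.8 CPM in the other libraries. After leaving out the 29 cDC1 and 72 cDC2 with at least 3 UMIs of epithelial, fibroblast and neutrophil genes, 731 genes were called between the subsets, 587 of them among the 857. Without the deepest member 935 were called, 852 of them among the 857.

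The cDC2 share was lower in both Cre+ tumors, and 2 mice a group cannot reach an exact p under 0.05. They made up 1.00% (45 of 4501, exact 95% binomial interval 0.73 to 1.34%) and 1.60% (83 of 5174, 1.28 to 1.98%) of barcodes in Cre- replicates 1 and 3, and 0.813% (42 of 5163, 0.587 to 1.10%) and 0.330% (20 of 6054, 0.202 to 0.510%) in Cre+ replicates 2 and 4. Both Cre+ libraries were below both Cre- libraries, by 0.730 percentage points on average (exact two-sided permutation test, p = 0.333, the smallest that 2 against 2 libraries allow). The cDC1 share was 0.244% (11 cells) and 0.560% (29 cells) in Cre- and 0.426% (22 cells) and 0.413% (25 cells) in Cre+ libraries, with overlap (difference 0.017 points, exact permutation p = 1.00). The cDC1 difference was -0.141 points without replicate 1 and 0.175 points without replicate 3, so its direction turned with the library left out. Among conventional dendritic cells, cDC1 were 19.6 and 25.9% in Cre- and 34.4 and 55.6% in Cre+ tumors, without overlap (22.2 points, exact permutation p = 0.333). Without replicate 4 this difference was 11.6 points and without replicate 3 that of the cDC2 share was -0.428 points. Without members holding UMIs of other cells the cDC2 difference was -0.463 points. Intervals cover counting error only, and shares of sorted cells need not be shares of the tumor.

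**Figure D4:**
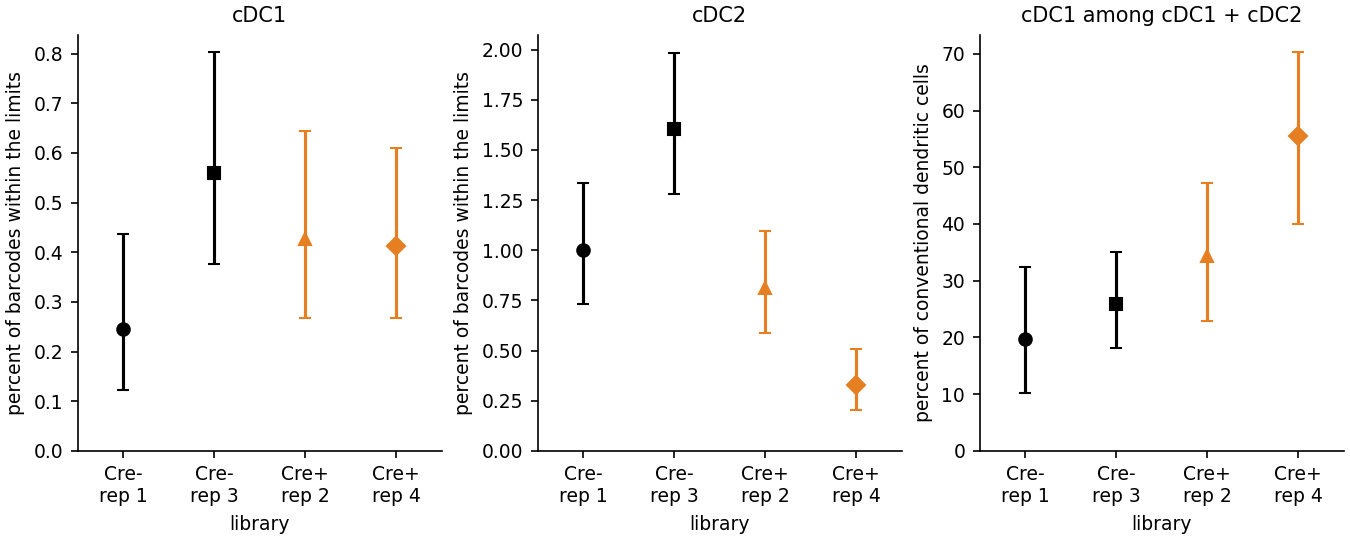
Percent of barcodes within the limits that were cDC1 (left) or cDC2 (middle) and percent of cDC1 among cDC1 and cDC2 (right) in each library, Cre- in black and Cre+ in orange, with exact 95% binomial intervals. The cDC2 share is lower and the cDC1 part of conventional dendritic cells higher in both Cre+ libraries, while the cDC1 share overlaps.

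No gene was called between the genotypes within either subset. In cDC1, 0 of 5565 genes passed (0% called, edgeR's quasi-likelihood test, 182 at an unadjusted p under 0.05, 0 by DESeq2), and in cDC2 0 of 7259 (0%, 139 unadjusted, 3 by DESeq2). Libraries of the 2 genotypes did not overlap in 30.3% of the genes in cDC1 and 28.1% in cDC2. Counts were simulated from the means and depths of these sums, with a fixed spread between mice assumed for all genes. In them a log2 change of 2 was recovered for 41% of genes in cDC1 and 45% in cDC2, and a change of 1 for 4% and 5%. With that spread, changes of that size would mostly be missed. Leaving out 1 library at a time gave 9 to 92 calls in cDC1 and 2 to 150 in cDC2, each with a single library in 1 arm that is assumed to vary like the others, and 0 in the full data. The lists showed medians without calls: in cDC1, G2/M genes had a median log2 fold change of Cre+ over Cre- of 1.07 over 15 genes and S phase genes of -0.55 over 17, against 0.01 over all genes, and in cDC2 the chemokines had 0.73 over 12 genes, against 0.02. Markers of other cells also had medians away from 0 between the genotypes, with 0 called. Their summed levels overlapped between the genotypes for plasmacytoid markers in cDC2 (469 and 650 CPM in Cre-, 481 and 1491 CPM in Cre+). Summed epithelial markers overlapped in both subsets. Summed monocyte markers in cDC2 did not overlap (1979 and 3024 CPM in Cre-, 3803 and 4143 CPM in Cre+). In cDC2 the median was 1.28 over 10 plasmacytoid dendritic cell markers (10 of 10 positive), 0.76 over 9 monocyte markers (9 of 9 positive) and -2.44 over 5 epithelial markers (0 of 5 positive), and in cDC1 it was 2.34 over 4 epithelial markers (4 of 4 positive). Summed plasmacytoid markers were highest in cDC2 of Cre+ replicate 4 (1491 CPM), and summed epithelial markers in cDC1 of Cre+ replicate 2 (4863 CPM) and in cDC2 of Cre- replicate 1 (9191 CPM), and their part in the other medians was not tested. A genotype difference that itself differed between the subsets was called for 1 of 7045 genes (0.0142%), the immunoglobulin light chain gene Igkc, described in the closing section.

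Set against mature dendritic cells (64 cells with the same limits but at least 5 Ccr7 and Fscn1 UMIs per 10000), 1067 of 6128 genes (17.4%) were called, 450 higher in cDC1 and cDC2 together (7.34%) and 617 higher in mature cells (10.1%). All 18 markers of mature cells outside the choice were lower in the conventional cells (median -4.03), a count that describes the gate on Ccr7 and Fscn1. Libraries did not overlap in 26.7% of genes, 16.8% with the conventional and 9.94% with the mature cells higher. Il12b averaged 8.07 ± 1.66 CPM in conventional and 614 ± 470 CPM in mature cells (log2 fold change -5.95 ± 0.40), Ccl22, a ligand of CCR4, 19.2 ± 13.5 and 814 ± 348 CPM, and Relb, a factor of maturation, 37.9 ± 11.2 and 493 ± 77.9 CPM. By the rule on fold size, mature cells were higher in Apol7c, Tnfrsf4, Nudt17, Ccl5, Zmynd15 and Il4i1, of which Apol7c had 0 UMIs in the conventional cells (at least 203-fold higher in mature cells). The conventional cells were higher in Tlr3, Siglech, Lpl, Ly6c2, Naaa and Sept3, with Tlr3 at 0 UMIs in mature cells and at least 20.5-fold higher in the conventional ones. The Siglech UMIs of conventional cells lay in few members, with 229 of 282 in 8 cells of at least 10 Siglech UMIs, all 8 without a Naaa UMI, and none in 236 of the 277 members. Without the members holding at least 2 UMIs of Siglech and Ccr9, Siglech did not pass the filter on low counts. Ly6c2 lost its call without replicate 3 (adjusted p = 0.0776) and Lpl with a stricter UMI minimum for replicate 4 (0.0981). Of the cDC1 markers, 12 of 17 tested were higher in conventional cells and 1 lower, among them Wdfy4 (290 ± 58.9 against 66.9 ± 44.0 CPM), while Irf8 was not called (783 ± 402 and 614 ± 254 CPM). Ccr2 was higher in conventional cells (2.78 ± 0.59), and 8 of 23 interferon-stimulated genes and 8 of 19 class I genes were higher in mature cells, with 0 and 2 higher in the conventional cells. Zbtb46 and Dpp4 were not called between the 2. The mature sums held as few as 7 and 9 cells in Cre+ replicates 4 and 2, and without replicate 1 or 3 the calls fell to 622 and 607.

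Set against 4186 MHC class II-high macrophages with C1q, 2339 of 11044 genes (21.2%) were called, 1042 higher in conventional dendritic cells (9.43%) and 1297 in macrophages (11.7%). These macrophages met the same limits but held at least 10 C1qa to C1qc UMIs per 10000. They held no UMI of Xcr1 and Clec9a and fewer than 2 of Cd209a and Flt3. The lineage genes lay on the dendritic cell side, with Zbtb46 at 34.3 ± 8.06 against 0.695 ± 0.317 CPM (5.68 ± 0.41), Dpp4, which encodes CD26, at 111 ± 10.6 against 7.37 ± 2.19 CPM (3.93 ± 0.24), and 8 of 13 genes of both subsets higher and 1 lower. By the rule, Sept3, Btla, Itgae, Klrd1, Cd7 and Jaml led that side. Of these Klrd1, a lectin-like receptor known from NK cells, and Cd7 were higher in cDC2 than in cDC1 (Klrd1 490 ± 265 against 35.5 ± 12.7 CPM). Macrophages were higher in 9 of 10 macrophage markers (median -5.13) and led by Lilra5, Ms4a7, Igf1, Gdf3, Apoe and Tmem119. The counts of macrophage markers and of lineage genes describe the gates that chose these cells. Lilra5 had 0 UMIs in the conventional cells (at least 117.5-fold higher in macrophages), Adgre1, which encodes F4/80, was at 13.8 ± 8.88 against 279 ± 62.7 CPM and Csf1r at 68.7 ± 30.1 against 635 ± 101 CPM. Toll-like receptors were mostly higher in macrophages (11 of 15 tested, with 3 higher in the conventional cells), as were 9 of 17 chemokines. Without replicate 1 or 3, 1441 and 1193 genes were called, 1349 and 1172 of them among the 2339.

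**Figure D5:**
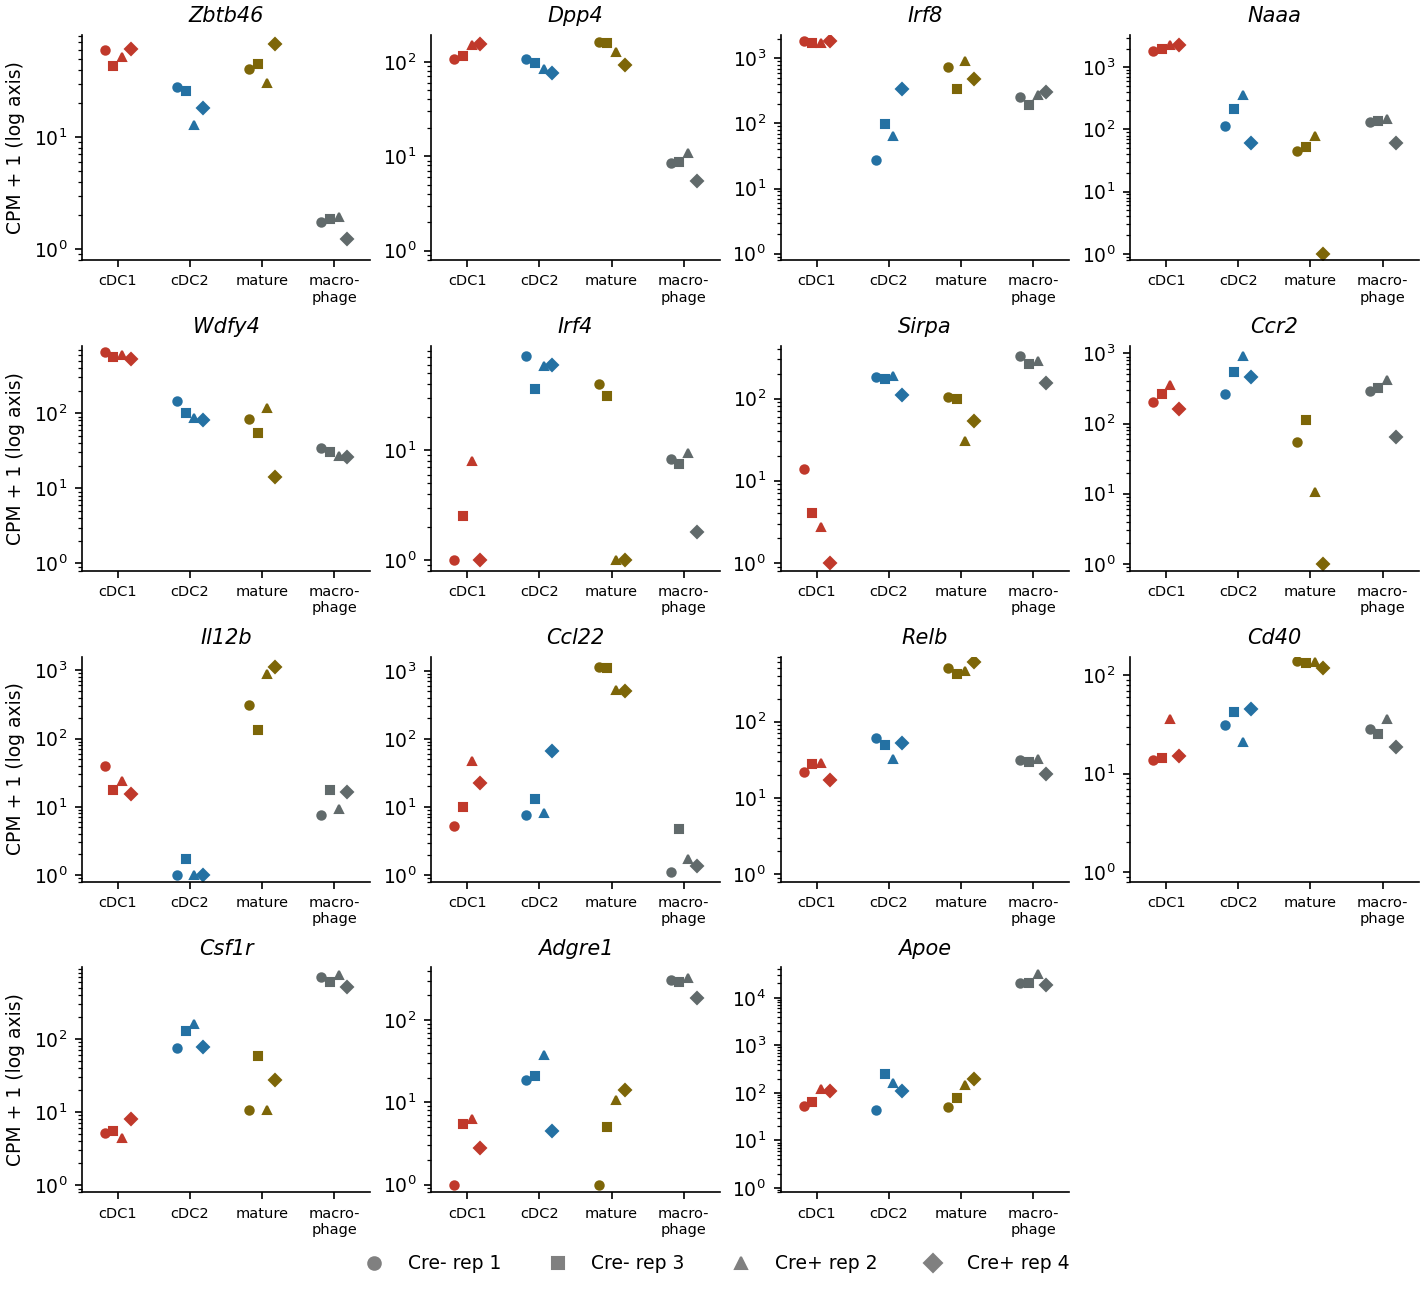
CPM + 1 (log axis) of 15 genes in each library for cDC1, cDC2, mature dendritic cells and MHC class II-high C1q macrophages. Zbtb46 and Dpp4 separate the 3 dendritic cell kinds from macrophages, Il12b, Ccl22, Relb and Cd40 are highest in mature cells, and Csf1r, Adgre1 and Apoe are highest in macrophages, with cDC2 above cDC1 for Csf1r in every library.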

How the data were processed

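Mammary tumors of 4 mice were measured with the 10x Genomics 3' v3 kit. Raw counts of UMIs, neither normalized nor pooled, were deposited for each library, made by the authors with Cell Ranger (version 6.1.2 according to the headers for replicates 1, 2 and 3, Cell Ranger 4 for replicate 4). Replicates 1 to 3 were deposited as called cells of at least 500 UMIs and replicate 4 with all 2582424 barcodes, of which 6576 had 2000 UMIs. The genome build named in the labels is a human one while the genes are mouse genes, so the build of the counts was taken as not given in the sources used here.

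Members were chosen per barcode by the rule in the report, and no upper limit on UMIs was set. Doublets were kept. UMI counts were summed per library and cell kind, so deep cells weigh more, and tested with edgeR 4.0.16 in R 4.3.3 (TMM, filterByExpr, quasi-likelihood F-test, genotype as covariate, Benjamini-Hochberg over all genes tested, 0.05). The 15 genes of the rule were left out of tests between cell kinds. CPM are UMIs per 1000000 of the sum, and the SD is over libraries. Shares were compared with exact permutation tests over libraries. Both subsets of a library come from 1 mouse and so are paired by design, and their deviations from the subset means correlated at -0.044, 0.10, 0.081 and 0.11 over genes in the 4 mice. Between subsets of different mice the correlations ran from -0.22 to 0.22. Fits were checked on simulated counts with a fixed spread between sums assumed for all genes. There, a log2 change of 2 between cDC1 and cDC2 was recovered for 92% of genes and a change of 1 for 30%. DESeq2, no filter, a mouse block, leaving out libraries and other gates were the alternatives. The methods of the study list cells under 30000 UMIs and cells with 200 to 5000 genes among those left out, and the upper limits tried here were read the other way round, keeping such cells.

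Besides the listed genes, up to 12 genes in each direction between cDC1 and cDC2 and up to 6 in the other comparisons were named, taking called genes in order of absolute fold, given at least 50 CPM in the higher kind and no overlap of libraries, passing over Gm, Rik, ribosomal, mitochondrial and sex-linked genes. The members and lists were chosen with earlier results of these data known. Some genes of the lists are not reported here. Each library is 1 mouse, so p-values measure the spread between these mice, and the genotypes share no replicate numbers to pair on. Exact intervals are Clopper-Pearson.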

Additional observations from a re-analysis of the deposited data

Results flagged for a closer look

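Igkc, an immunoglobulin light chain gene of B cells and plasma cells, was the 1 gene whose genotype difference itself differed between cDC1 and cDC2 (log2 fold change of the interaction -9.07 ± 1.01, edgeR adjusted p = 0.0281). It was at 42.2 and 48.2 CPM in Cre- and 0 and 3.57 CPM in Cre+ cDC1, and at 2.22 and 2.12 CPM in Cre- and 38.1 and 68.9 CPM in Cre+ cDC2. These rest on 10, 32, 0 and 2 UMIs in cDC1 and 2, 3, 32 and 20 in cDC2. The call was lost without members holding UMIs of other cells (adjusted p = 1), with cDC2 taken by Cd209a alone (0.0768), without replicate 1 (0.322) and without replicate 3 (0.481), and without the Siglech and Ccr9 members Igkc did not pass the filter on low counts.

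Of 223 groups of 4 libraries, 18 held 1 library far from the other 3, a gap that chance gives in about 1 of 20 groups. In cDC1 the high ones were Ccl17 at 567 CPM in Cre+ replicate 4 (45.1 CPM or less in the others), Itgae at 366 CPM and Mgl2 at 55.3 CPM in the same library, Klf4 at 574 CPM and Cd209d at 59.1 CPM in Cre- replicate 1, Ifitm1 at 66.3 CPM in Cre- replicate 3, and Ccl5 at 33.0, Cd14 at 127, Cxcl10 at 53.8, Epcam at 201 and Krt8 at 149 CPM in Cre+ replicate 2. The low ones were Ctss at 393 CPM in Cre- replicate 1, Unc93b1 at 289.9 CPM in Cre+ replicate 2 and Tap1 at 228 CPM in Cre+ replicate 4. In cDC2, Krt8 was at 670 CPM in Cre- replicate 1, Cd36 at 16.7 CPM and Ifitm1 at 315 CPM in Cre+ replicate 2, and Itgal at 20.7 CPM in Cre+ replicate 4. Epcam and Krt8 in cDC1 of Cre+ replicate 2 and Krt8 in cDC2 of Cre- replicate 1 stand in the same sums as the highest summed epithelial markers of each subset (4863 and 9191 CPM). The part of epithelial RNA in these values was not tested.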

How the results depend on the processing

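Of 108 genes of the text called between cDC1 and cDC2, 78 kept direction and call under all alternatives in which they were tested, and 0 reversed in any. An alternative in which a gene did not pass the low-count filter was not counted for that gene. The gene counts between cDC1 and cDC2 were 857, and 1439 without the low-count filter and 424 to 804 when 1 library was left out, lowest without replicate 3. The fit with the mouse as a replicate block called 948, of which 824 were among the 857, and the block moved no count of calls by more than 1.5 times. Between genotypes, 0 genes became 72 in cDC1 and 102 in cDC2 without the filter, 3 in cDC2 with DESeq2, 3 in cDC1 without members holding UMIs of other cells, and 9 to 92 in cDC1 and 2 to 150 in cDC2 when 1 library was left out. The interaction count of 1 became 2 with DESeq2, 74 without the filter, 2 with upper limits on cells (200 to 5000 genes, under 30000 UMIs), 0 with cDC2 by Cd209a alone, 0 without members holding UMIs of other cells, 0 without Siglech and Ccr9 members, and 0 to 1 when 1 library was left out. Leaving out 1 library gave 607 to 905 genes against mature cells and 1193 to 2712 against macrophages. The cycling difference of 11.1 points became 18.0 without members holding UMIs of other cells and 6.49 with the upper limits on cells. As shares of MHC class II-high barcodes, the genotype difference was -0.290 points for cDC1 and -3.93 points for cDC2. The cause of these changes was not tested. Leaving out the Siglech and Ccr9 members or the deepest member was chosen after seeing the data. The main limits are 2 mice per genotype, sums of as few as 11 cDC1, and a version and deposited form of replicate 4 that cannot be told apart from that mouse.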
